A study of Mus musculus with 9 samples.

Results

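The genes described here are 35 genes of glucose breakdown in the mouse, listed by name: enzymes of glycolysis, lactate dehydrogenases and the transporters of lactate and glucose, pyruvate dehydrogenase and its kinases, enzymes of the pentose phosphate pathway, and enzymes of glycogen. They were chosen by gene symbol, with Pkm2 read as Pkm and Eno1a as Eno1. A probe with such a name was on the array for 34 of the 35. After probes with outlier spots were dropped, 27494 gene names remained in all. Of the 35 genes, 32 could be measured, among 24897 genes tested. Messenger RNA was measured on 9 Agilent arrays read in 1 colour, 3 for each of 3 groups of sorted cells. The groups were SVZ Sox2-GFP (cells of the subventricular zone, where neural stem cells line the lateral ventricle), hippocampus Sox2-GFP, and hippocampus DCX-DsRed. In Sox2-GFP mice the Sox2 promoter, active in neural stem cells, drives green fluorescent protein, and in DCX-DsRed mice the Dcx promoter, active in newborn neurons, drives a red one. All mice were 6 to 8 weeks old, each experiment used a pool of 10 dissections, and for each array the RNA of 1000 sorted cells was amplified. Region and reporter were compared, with no treatment in any group. Sorted cells are defined by the reporter alone, so each group may hold more than 1 cell type. Whether replicates A, B and C of a group had their own animals is not stated in the labels, so the p-values rest on array-to-array spread that may be technical.

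Glycolysis turns glucose into pyruvate. Hexokinase traps glucose in the cell, phosphofructokinase sets the pace, and the lower steps yield ATP. Pyruvate either becomes lactate, through lactate dehydrogenase, or enters the mitochondrion, where pyruvate dehydrogenase makes acetyl-CoA and its kinases shut it off. The pentose phosphate pathway branches off at glucose 6-phosphate and supplies NADPH and ribose, and glycogen is the stored form of glucose. In the brain, astrocytes hold most of the glycogen and release lactate, which neurons can take up, and myelinating oligodendrocytes also export lactate to axons.

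Between 80.4% and 88.4% of probes were well above background per array, and no spot was saturated. Values below are log2 signal minus the array's own 75th percentile, so a value of 0 is that percentile and a difference of 1 is 2-fold. They are levels of a probe and are compared only for the same probe across arrays. The arrays lay on 3 slides: slide 1 held SVZ Sox2-GFP A with DCX-DsRed A and B, slide 2 held hippocampus Sox2-GFP A and B alone, and slide 3 held the other 4 arrays. Hippocampus Sox2-GFP replicate C stood apart: its correlation over all genes was 0.816 with replicate A and 0.784 with replicate B of its group, which correlated at 0.919 with each other. The genes behind the reporters did not separate the groups as labelled. Sox2 levels were 0.92, 2.07 and 2.28 on the SVZ Sox2-GFP arrays, 0.94, 0.92 and -0.95 on the hippocampus Sox2-GFP arrays, and 1.30, 1.71 and 1.70 on the DCX-DsRed arrays. Dcx levels were 2.57, 3.05 and -2.36 on the SVZ Sox2-GFP arrays, -0.20, -0.77 and -2.88 on the hippocampus Sox2-GFP arrays, and -1.29, -0.78 and 1.28 on the DCX-DsRed arrays.

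Markers of other cell types differed between the groups. The summed linear level of 10 myelinating oligodendrocyte markers, in units of each array's 75th percentile, was 24.1 to 85.8 in SVZ Sox2-GFP, 3.37 to 42.0 in hippocampus Sox2-GFP and 280.4 to 363.4 in hippocampus DCX-DsRed. In the hippocampus all 10 had lower values with Sox2-GFP than with DCX-DsRed on every array, beside 13.2% of all genes. Of the 10, 5 passed the test, beside 3.19% of all genes. For 9 choroid plexus markers the sum was 2.23 to 3.23 in SVZ Sox2-GFP, 52.3 to 177.3 in hippocampus Sox2-GFP and 2.23 to 2.99 in hippocampus DCX-DsRed. Of those 9, 7 passed the test as higher with Sox2-GFP in the hippocampal comparison, beside 3.19% of all genes in either direction. Ttr, the defining choroid plexus marker, was at -2.09, -4.71 and -4.84 in SVZ Sox2-GFP, 5.40, 5.03 and 6.42 in hippocampus Sox2-GFP, and -5.08, -4.83 and -1.19 in DCX-DsRed, and it was well above background on 3, 3 and 2 of these arrays. The sum of 10 astrocyte markers was 66.4 to 137.6 in SVZ Sox2-GFP, 13.9 to 77.8 in hippocampus Sox2-GFP, with the lowest value on replicate C, and 27.5 to 34.3 in DCX-DsRed. For 7 ependymal markers it was 3.38 to 6.29 in SVZ Sox2-GFP, 7.61 to 22.4 in hippocampus Sox2-GFP and 1.94 to 2.48 in DCX-DsRed. The sum of 6 immature neuron markers was 2.52 to 21.8 in SVZ Sox2-GFP, 1.81 to 4.16 in hippocampus Sox2-GFP and 3.34 to 6.75 in DCX-DsRed. The part of these markers' cells in the differences below was not tested, and fewer cells of a type cannot be told apart from less RNA per cell.

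In the hippocampus, 22 of the 32 measured genes had a higher mean with Sox2-GFP than with DCX-DsRed, beside 46.4% of all genes. Of the 32, 2 passed the test, with limma's adjusted p under 0.05: Eno1 (enolase of lower glycolysis) and Pfkl (liver-type phosphofructokinase), both higher in Sox2-GFP cells. That is beside 793 of 24897 genes, or 3.19%, for the array as a whole. The values of the 3 Sox2-GFP arrays lay above those of all 3 DCX-DsRed arrays for 13 of the 32 genes, beside 11.5% of all genes. They lay below for 2 genes, Slc16a7 and Taldo1, beside 13.2% of all genes. At an unadjusted p under 0.05 there were 12 genes, 10 of them higher, beside 16.9% of all genes. The median log2 difference of the 32 genes was 0.64, beside -0.08 over all genes. These figures, and those of the comparisons below, take the brightest probe of each gene. Several probes were kept for 19 genes. All probes of a gene had the same sign for 11 of these 19 here, 12 between the regions and 14 for SVZ Sox2-GFP minus DCX-DsRed.

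Between the regions, SVZ minus hippocampus Sox2-GFP, none of the 32 genes passed limma's test, beside 100 genes or 0.402% of the array. At an unadjusted p under 0.05 there were 4 genes, namely Pfkfb3 with a higher and Pgk1, Eno2 and Pdk3 with a lower value in the SVZ, beside 10.8% of all genes. The SVZ arrays lay above all hippocampal ones for 1 gene, Pfkfb3, beside 8.85% of all genes, and below for Pfkl, Aldoa, Pgk1 and Eno2, beside 8.07%. The median difference was -0.37 over the 32 genes and 0.08 over all genes, and it was -0.79 over the 32 genes within slide 3. This comparison shares the hippocampus Sox2-GFP arrays with the one above.

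SVZ Sox2-GFP minus hippocampus DCX-DsRed changes region and reporter together. Again none of the 32 genes passed limma's test, beside 379 genes or 1.52% of the array, and 8 had an unadjusted p under 0.05, beside 13.7% of all genes. The SVZ arrays lay above the DCX-DsRed arrays for 9 genes (Hk1, Pfkl, Pfkp, Pfkfb3, Eno1, Ldhb, Slc2a3, Pdhb and Pdk2), beside 10.7% of all genes. They lay below for Slc16a7, Pdk3, Tkt and Taldo1, beside 10.4%. The median difference was 0.04 over the 32 genes and -0.02 over all genes.

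**Figure D1:**
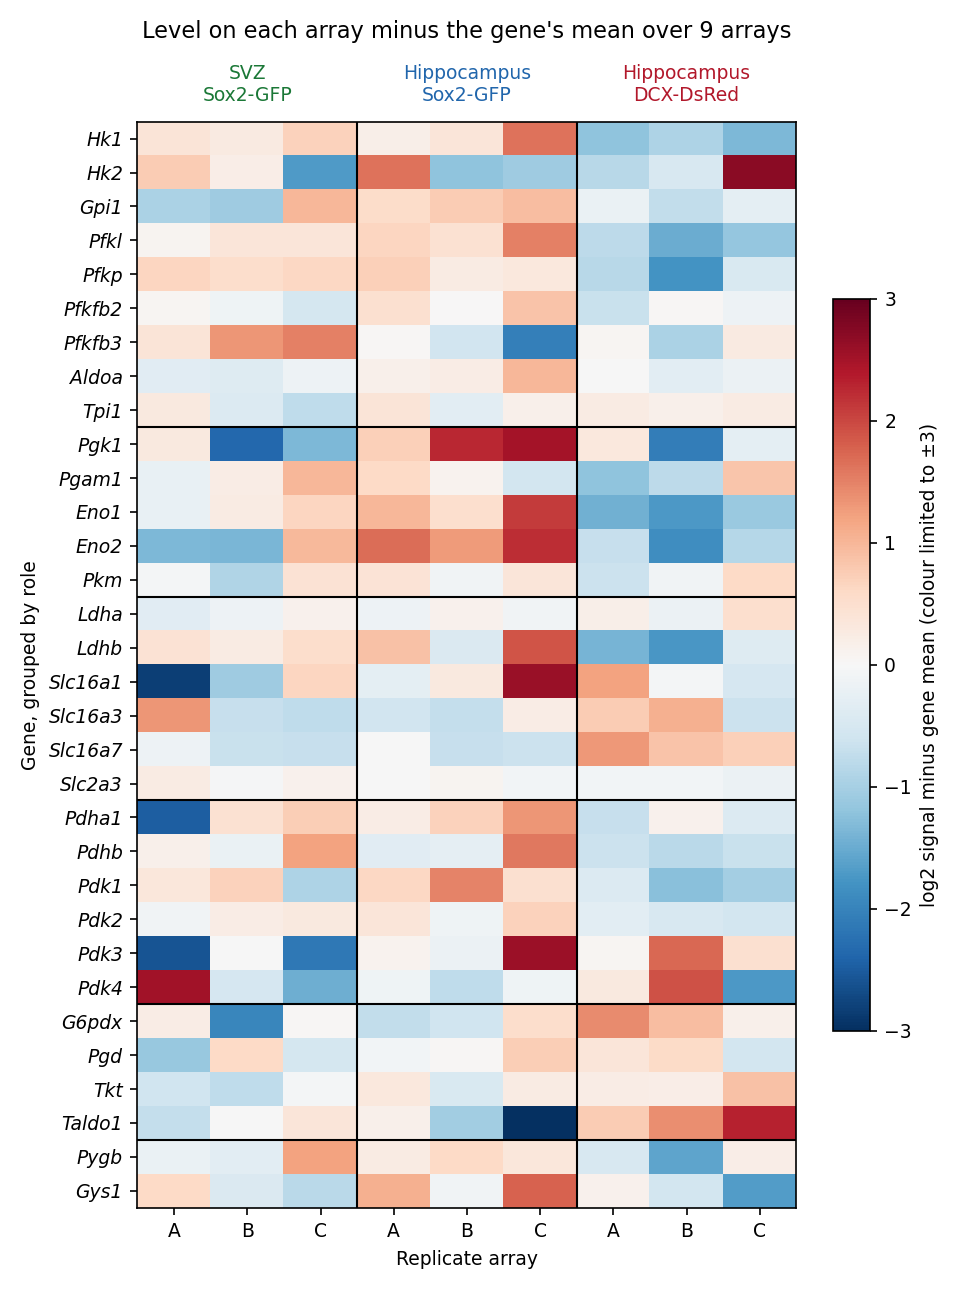
Heat map of the 32 measured genes (rows, grouped by role) on the 9 arrays (columns), coloured by log2 level minus the gene's own mean over the arrays. Red cells gather on the hippocampus Sox2-GFP arrays, above all replicate C, which was the highest of the 9 arrays for 15 genes. The pentose phosphate genes Taldo1, G6pdx and Tkt lie above their own means on every DCX-DsRed array. Tkt does so only faintly on replicates A and B, and G6pdx on replicate C.

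The single array hippocampus Sox2-GFP C weighed on this pattern. It held the highest of the 9 values for 15 of the 32 genes, while replicates A and B of its group held it for 2 and 1. The median of the 32 genes, each centred on its own mean, was 0.00, -0.14 and 0.21 on the SVZ Sox2-GFP arrays, 0.29, 0.03 and 0.61 on the hippocampus Sox2-GFP arrays, and -0.15, -0.40 and -0.30 on the DCX-DsRed arrays. All 3 hippocampus Sox2-GFP values thus exceeded all 3 DCX-DsRed values. The same slide held hippocampus Sox2-GFP C and DCX-DsRed C, and between those 2 arrays the median difference was 1.20. Without replicate C of hippocampus Sox2-GFP the median difference in the hippocampal comparison was 0.38, and Eno1 and Pfkl still passed the test.

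**Figure D2:**
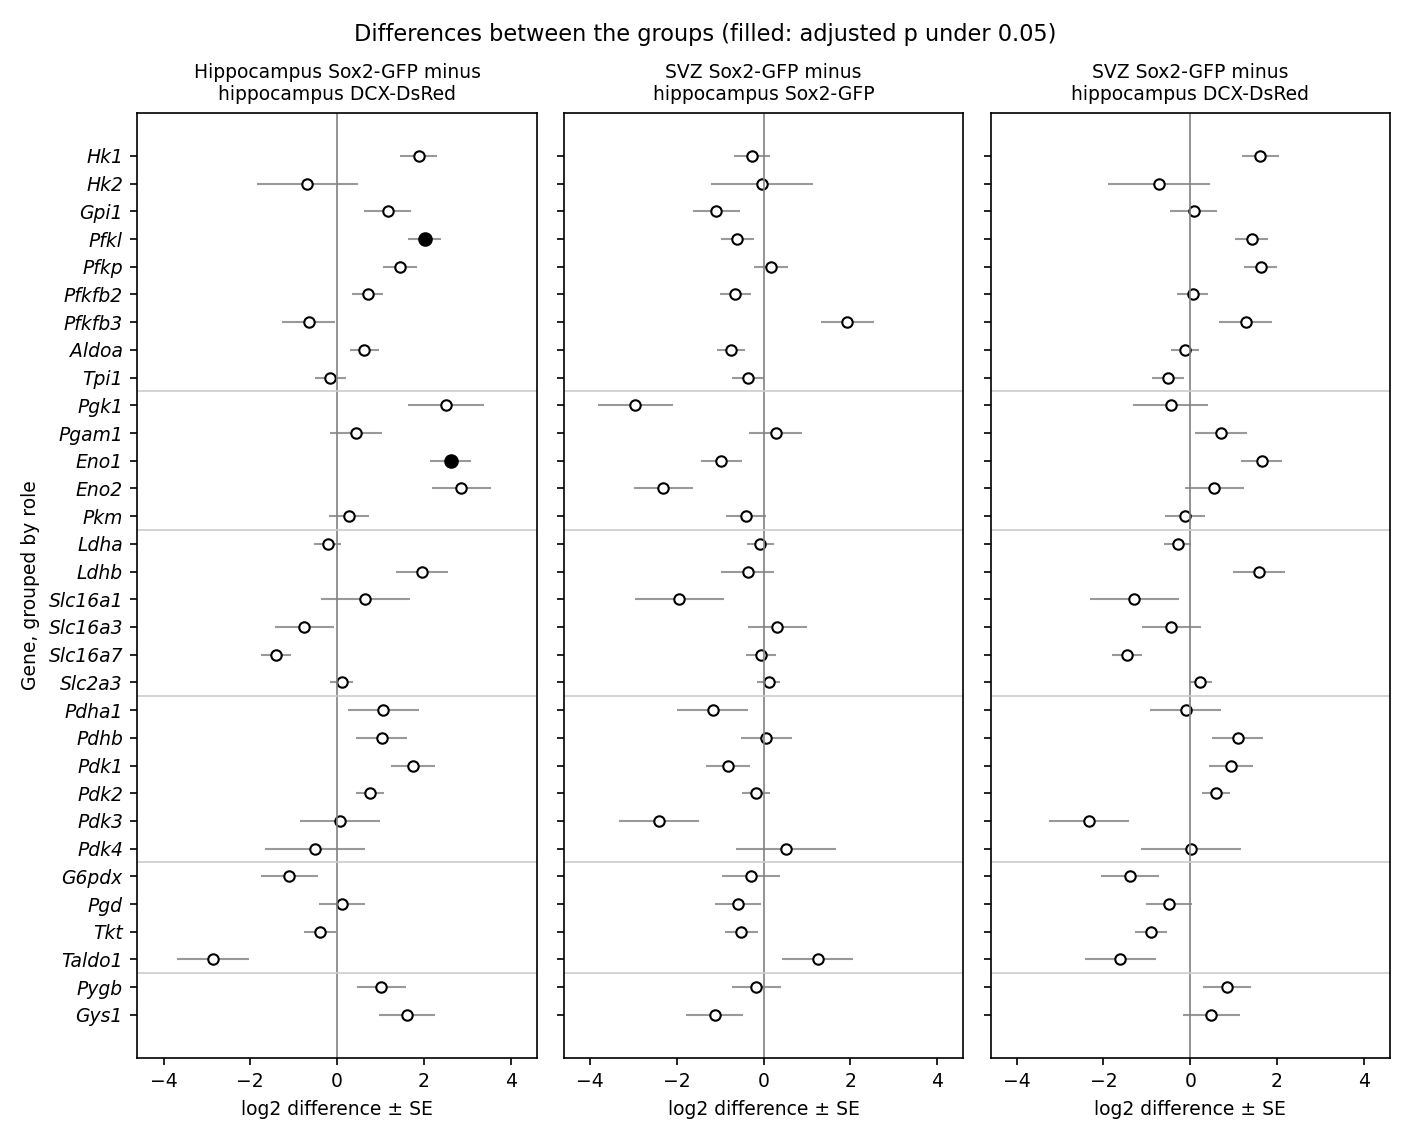
Log2 difference with its standard error for the 32 genes in the 3 comparisons, grouped by role, with filled points for an adjusted p under 0.05. Only Pfkl and Eno1 in the hippocampal comparison are filled, and the points of lower glycolysis all lie right of 0 in that panel.

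Among the genes of upper glycolysis, Pfkl, which commits sugar to glycolysis, was higher in Sox2-GFP cells of the hippocampus. Its levels were 1.14, 1.44 and 1.44 in SVZ Sox2-GFP, 1.72, 1.54 and 2.58 in hippocampus Sox2-GFP, and 0.28, -0.41 and -0.10 in DCX-DsRed. Every Sox2-GFP array of either region lay above every DCX-DsRed array. In the hippocampus the log2 difference was 2.02 (SE 0.37, 4.06-fold, adjusted p = 0.0294 by limma, higher on 3 of 3 arrays). The call was kept in 13 of 21 alternative fits, where the adjusted p ran between 0.0018 and 0.112, and it was lost with the median of each array as the scale, with only the 6 hippocampal arrays, and when any 1 of the 3 DCX-DsRed arrays, or hippocampus Sox2-GFP A or B, was left out, and with the replicate letter as a block. Slide 3 held 1 array of each hippocampal group, which differed by 2.68. A fit blocked by slide gives hippocampus Sox2-GFP A and B no weight, so its value of 2.57 rests on replicate C alone in that group and adds no support to the call. For SVZ minus DCX-DsRed the difference was 1.42 (SE 0.37, adjusted p = 0.127), which did not pass.

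Pfkp, the platelet-type phosphofructokinase, did not pass, though its DCX-DsRed values lay below all others. It stood at 3.05, 2.93 and 3.02 in SVZ Sox2-GFP, 3.12, 2.66 and 2.71 in hippocampus Sox2-GFP, and 1.58, 0.62 and 1.94 in DCX-DsRed. The hippocampal difference was 1.45 (SE 0.39, adjusted p = 0.0953 by limma). Its other probes gave 1.56 and -0.61.

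Pfkm, the muscle type, had a single probe, which was flagged as an outlier spot on hippocampus Sox2-GFP replicate B and was not tested. Its unflagged levels were 1.29, 1.34 and 1.66 in SVZ Sox2-GFP, 0.74 and 1.79 in hippocampus Sox2-GFP, and 0.75, 0.21 and -0.10 in DCX-DsRed.

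Hk1, the hexokinase of the brain, stood at 2.26, 2.13 and 2.55 in SVZ Sox2-GFP, 2.04, 2.22 and 3.48 in hippocampus Sox2-GFP, and 0.65, 0.93 and 0.52 in DCX-DsRed. By this probe, the brightest, Sox2-GFP arrays of both regions lay above all DCX-DsRed arrays. The hippocampal difference was 1.88 (SE 0.42, adjusted p = 0.0570 by limma), just outside the threshold, and it passed in 8 of 21 alternatives. Hk1 has 6 probes, and they did not all point the same way. Of the 6, 5 had higher values with Sox2-GFP in the hippocampus, by 1.79 to 2.50, and each had an unadjusted p under 0.05. The remaining probe differed by -1.36 (unadjusted p = 0.0127) and lay lower on every Sox2-GFP array of the hippocampus, at -3.47, -2.62 and -3.87, against -2.09, -1.73 and -2.06 in DCX-DsRed. Whether it reads another transcript was not tested. For SVZ minus DCX-DsRed, 4 of the 6 probes had a positive difference, and the others gave -0.33 and -0.95.

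**Figure D3:**
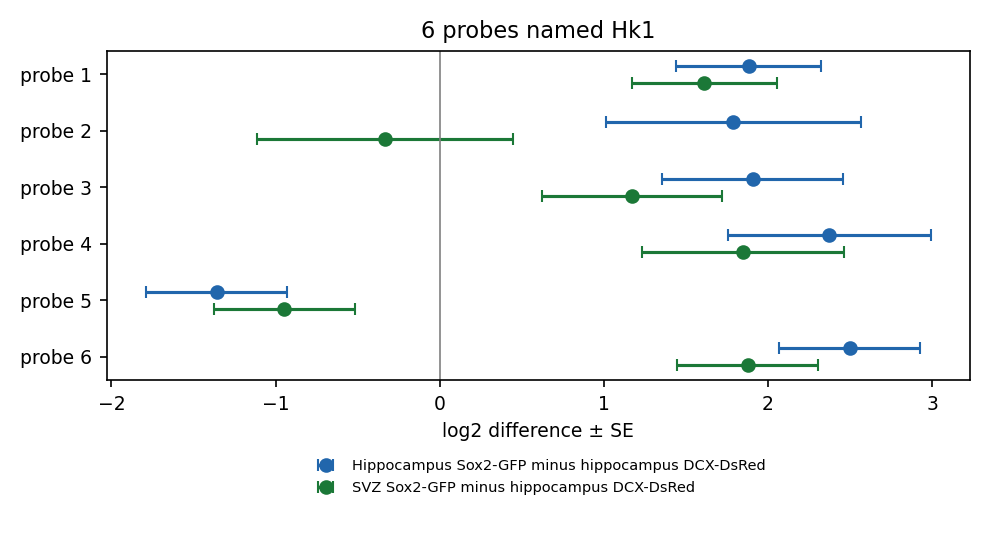
Log2 difference with its standard error for each of the 6 probes named Hk1, in hippocampus Sox2-GFP (blue) and in SVZ Sox2-GFP cells (green), each minus hippocampus DCX-DsRed. The blue points of 5 probes lie between 1.79 and 2.50, and that of probe 5 lies at -1.36.

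Hk2, the hexokinase of muscle and of growing cells, was near background, since only 1 array of each group measured it well above. Its values were -5.62, -6.20 and -8.10 in SVZ Sox2-GFP, -4.76, -7.61 and -7.45 in hippocampus Sox2-GFP, and -7.22, -6.87 and -3.68 in DCX-DsRed. Gpi1, the isomerase after hexokinase, stood higher on the 3 hippocampus Sox2-GFP arrays (1.75 to 2.12) than on the DCX-DsRed arrays (0.44 to 0.97), with a difference of 1.17 (SE 0.55, adjusted p = 0.335). Its second probe had the opposite sign. Aldoa, aldolase A, was at 3.82 to 4.05 in SVZ Sox2-GFP, 4.35 to 5.20 in hippocampus Sox2-GFP and 3.88 to 4.18 in DCX-DsRed. Tpi1, triose phosphate isomerase, overlapped in every comparison.

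The next genes regulate phosphofructokinase. Pfkfb3, which makes its activator fructose 2,6-bisphosphate, was at 0.67, 1.61 and 1.79 in SVZ Sox2-GFP, 0.32, -0.29 and -1.76 in hippocampus Sox2-GFP, and 0.35, -0.67 and 0.55 in DCX-DsRed. All SVZ values were above all others. The difference between the regions was 1.93 (SE 0.61, adjusted p = 0.315 by limma, unadjusted p = 0.0132). The other 2 probes of Pfkfb3 gave 0.57 (unadjusted p = 0.452) and 0.77 (unadjusted p = 0.427), and their groups overlapped. In the fit blocked by slide, with hippocampus Sox2-GFP represented by replicate C alone, the difference was 3.41. Pfkfb2, the heart type, overlapped in every comparison by its brightest probe, at 1.47, 1.29 and 0.89 in SVZ Sox2-GFP, 1.89, 1.43 and 2.27 in hippocampus Sox2-GFP, and 0.75, 1.45 and 1.27 in DCX-DsRed. By another, dimmer probe all DCX-DsRed arrays lay below all others. That probe gave 1.05 in the hippocampus and 1.64 for SVZ minus DCX-DsRed (SE 0.51, adjusted p = 0.360 and 0.196 by limma). Its remaining probes overlapped throughout.

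**Figure D4:**
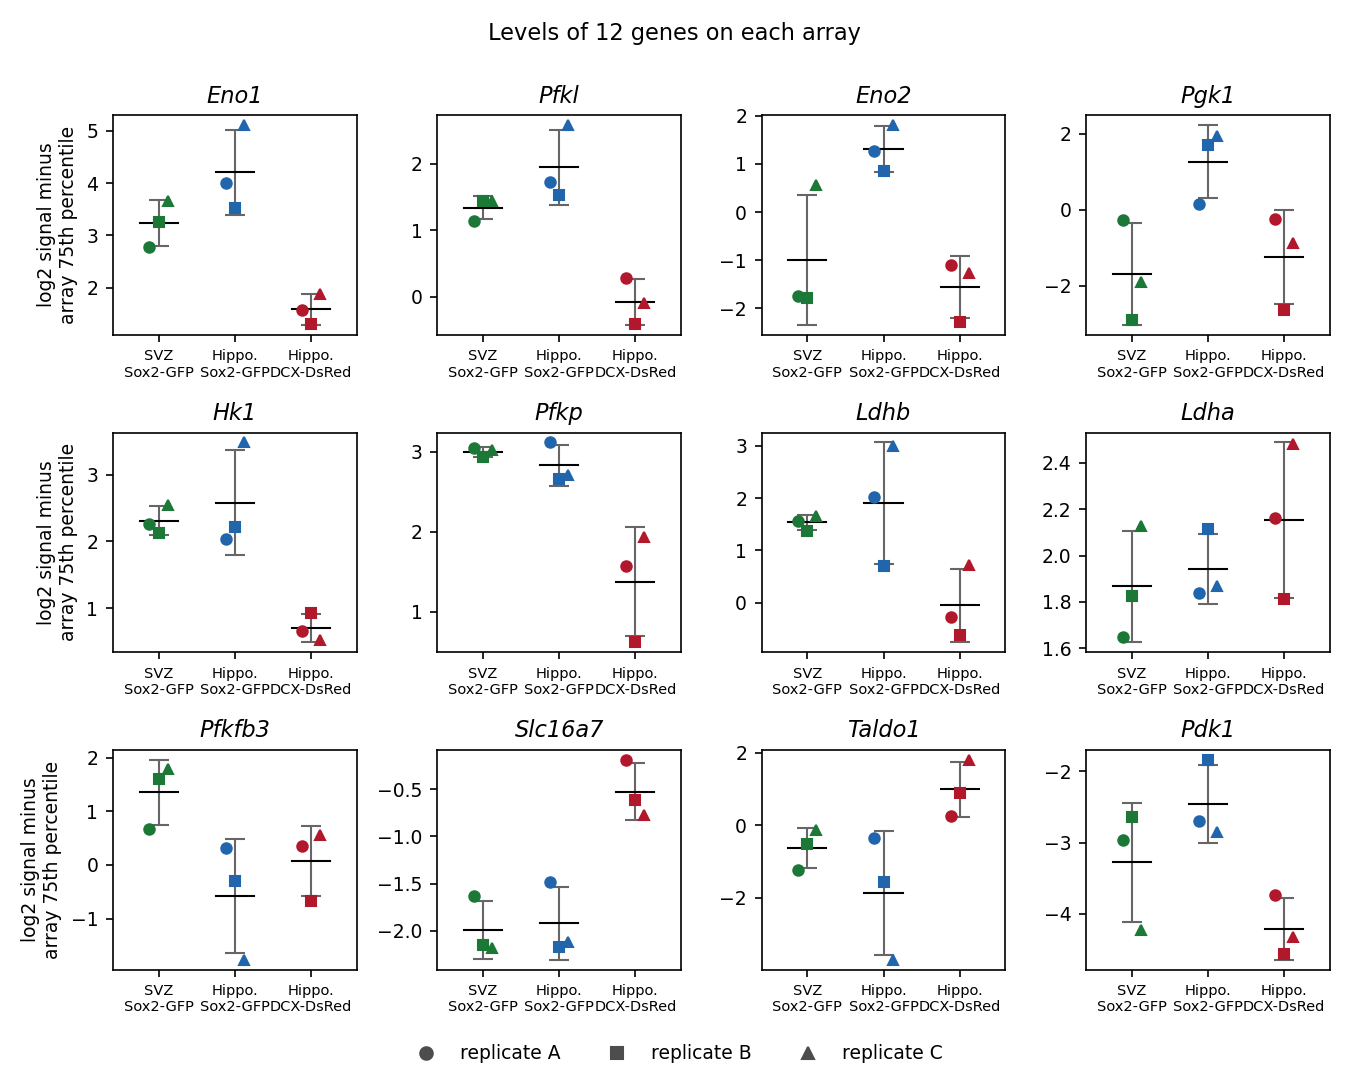
Log2 level of 12 genes on each array (symbols, replicates A, B and C) with the group mean and SD (bars), for SVZ Sox2-GFP, hippocampus Sox2-GFP and hippocampus DCX-DsRed. Eno1, Pfkl, Hk1 and Pfkp are lowest on the DCX-DsRed arrays, Slc16a7 and Taldo1 are highest there, Ldha overlaps, and the 3 SVZ points of Pfkfb3 lie above the hippocampal ones. The 12 genes were chosen after their values were seen.

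In lower glycolysis, Eno1, the ubiquitous enolase, had the larger of the 2 called differences. Its levels were 2.78, 3.26 and 3.66 in SVZ Sox2-GFP, 3.99, 3.52 and 5.11 in hippocampus Sox2-GFP, and 1.57, 1.30 and 1.89 in DCX-DsRed. Both Sox2-GFP groups lay above all DCX-DsRed arrays. In the hippocampus the log2 difference was 2.62 (SE 0.47, 6.16-fold, adjusted p = 0.0265 by limma, higher on 3 of 3 arrays). It passed in 15 of 21 alternatives, with adjusted p between 0.00091 and 0.0996, and it failed with the median of each array as the scale, with only the 6 hippocampal arrays, and when any 1 of the DCX-DsRed arrays, or hippocampus Sox2-GFP A, was left out. It was 3.15 in the fit blocked by slide and 3.22 between the 2 arrays on slide 3, and both values rest on replicate C, the highest Eno1 array, as the only one of hippocampus Sox2-GFP. For SVZ minus DCX-DsRed it was 1.65 (SE 0.47, adjusted p = 0.154), and between the regions -0.98 (SE 0.47, adjusted p = 0.506).

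Eno2, the enolase of neurons, did not pass the test in any comparison. It stood at -1.75, -1.80 and 0.55 in SVZ Sox2-GFP, 1.27, 0.85 and 1.81 in hippocampus Sox2-GFP, and -1.11, -2.29 and -1.27 in DCX-DsRed. The hippocampal Sox2-GFP arrays exceeded all others. The difference was 2.87 against DCX-DsRed cells (SE 0.68, adjusted p = 0.0664 by limma), and SVZ minus hippocampus was -2.31 (SE 0.68, adjusted p = 0.272). A second Eno2 probe gave 3.97 (SE 2.03) and -5.13 (SE 2.03).

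Pgk1, the phosphoglycerate kinase, which yields ATP, was at -0.27, -2.91 and -1.91 in SVZ Sox2-GFP, 0.16, 1.69 and 1.94 in hippocampus Sox2-GFP, and -0.24, -2.64 and -0.87 in DCX-DsRed. The hippocampal difference was 2.51 (SE 0.87, adjusted p = 0.187) and SVZ minus hippocampus was -2.96 (SE 0.87, adjusted p = 0.270), and a second probe gave 2.57 and -2.96. Pgam1, the mutase, and Pkm, pyruvate kinase, overlapped between all groups, with hippocampal differences of 0.44 (SE 0.60) and 0.28 (SE 0.46). A second Pkm probe was flagged on 1 array and left out.

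No probe carried the name Gapdh, the gene of the dehydrogenase between aldolase and Pgk1. A probe named only by gene ID 14433, which RefSeq pairs with Gapdh, had levels of -3.96, -0.71 and 0.67 in SVZ Sox2-GFP, -0.30, -0.36 and 2.54 in hippocampus Sox2-GFP, and -0.14, 0.22 and -1.30 in DCX-DsRed. The groups overlapped. This gene has many near-identical copies in the mouse genome, and cross-binding of the probe was not tested.

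Eno1 and Pfkl both passed in the hippocampal comparison, so their RefSeq promoter windows (assembly GRCm38.p6, 250 bases before to 50 after the start site, in transcript direction) are shown. Capitals mark the letters ACGTG and GCGTG on either strand (CACGT and CACGC on the other), the core that hypoxia-inducible factors recognise in other genes. RefSeq lists 3 Eno1 starts, and the window not printed shares 273 bases with one that is.
Eno1, upstream start, chr4:150236458-150236757, plus strand: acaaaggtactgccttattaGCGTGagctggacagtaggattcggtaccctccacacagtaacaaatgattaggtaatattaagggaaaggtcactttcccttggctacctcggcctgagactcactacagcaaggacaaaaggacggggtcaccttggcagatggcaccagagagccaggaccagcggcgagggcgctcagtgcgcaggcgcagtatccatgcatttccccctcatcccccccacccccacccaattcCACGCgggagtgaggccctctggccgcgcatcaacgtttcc
Eno1, downstream start, chr4:150236947-150237246, plus strand: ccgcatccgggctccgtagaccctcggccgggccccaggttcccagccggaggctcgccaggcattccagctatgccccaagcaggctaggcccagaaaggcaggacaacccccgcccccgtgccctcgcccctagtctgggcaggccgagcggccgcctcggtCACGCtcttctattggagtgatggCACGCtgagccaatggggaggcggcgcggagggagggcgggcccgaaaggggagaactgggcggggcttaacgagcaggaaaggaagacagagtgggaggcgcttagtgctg
Pfkl, chr10:78009758-78010057, minus strand: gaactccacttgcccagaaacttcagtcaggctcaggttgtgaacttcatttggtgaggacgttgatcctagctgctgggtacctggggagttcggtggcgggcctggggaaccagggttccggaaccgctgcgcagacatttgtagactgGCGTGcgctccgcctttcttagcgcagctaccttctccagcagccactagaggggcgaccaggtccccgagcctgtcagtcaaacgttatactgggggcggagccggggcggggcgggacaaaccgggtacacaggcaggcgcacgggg
Each printed Eno1 window holds 2 matches to GCGTG and the Pfkl window holds 1, and none holds ACGTG.

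At least 1 of the motifs was found for 26 of the 30 measured genes with a window (86.7%), beside 46.7% of all genes with a window. A gene counted if any of its windows matched, and the 30 genes had more windows per gene (43 in all) than the array (32851 for 27025 genes). By window the shares were 76.7% and 43.8%. ACGTG was in 44.2% of the 30 genes' windows and GCGTG in 55.8%, beside 19.6% and 32.4% of all windows. The median G+C content was 61.0% in these windows and 52.7% in all. A match is a letter match only. Slc16a7 and Slc2a3 had no window.

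Lactate is made, used and moved by the next genes. Ldhb encodes the lactate dehydrogenase subunit of oxidative tissue and Ldha that of lactate-producing tissue. Ldhb was at 1.57, 1.38 and 1.66 in SVZ Sox2-GFP, 2.01, 0.69 and 3.0 in hippocampus Sox2-GFP, and -0.27, -0.63 and 0.73 in DCX-DsRed. Its SVZ values exceeded those of DCX-DsRed, while 1 hippocampus Sox2-GFP value lay just under the highest of DCX-DsRed. Ldha overlapped between all groups, at 1.65 to 2.13 in SVZ Sox2-GFP, 1.84 to 2.11 in hippocampus Sox2-GFP and 1.81 to 2.48 in DCX-DsRed. The hippocampal difference of Ldhb was 1.96 (SE 0.60, adjusted p = 0.142 by limma), and that of Ldha was -0.21 (SE 0.31, adjusted p = 0.784).

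Slc16a7, which encodes the monocarboxylate transporter MCT2 that neurons use to take up lactate, had its highest values in DCX-DsRed. Its levels were -1.63, -2.16 and -2.18 in SVZ Sox2-GFP, -1.48, -2.17 and -2.12 in hippocampus Sox2-GFP, and -0.19, -0.62 and -0.77 in DCX-DsRed. DCX-DsRed arrays exceeded all 6 others. The hippocampal difference was -1.40 (SE 0.35, adjusted p = 0.0750 by limma), and SVZ minus DCX-DsRed was -1.46 (SE 0.35, adjusted p = 0.0956). A second Slc16a7 probe gave -2.21 (SE 1.17) and -1.34 (SE 1.17).

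Slc16a1, encoding MCT1, varied more within groups than between them by its brightest probe: -4.52, -2.75 and -1.04 in SVZ Sox2-GFP, -1.99, -1.39 and 0.89 in hippocampus Sox2-GFP, and -0.50, -1.75 and -2.19 in DCX-DsRed. Its 3 probes gave hippocampal differences of 0.65, -0.60 (SE 0.40) and -2.70 (SE 1.68). By each of the latter probes, every Sox2-GFP array of either region lay below every DCX-DsRed array. SVZ minus DCX-DsRed was -1.13 and -2.80 by them, and -1.29 by the brightest. Slc16a3, encoding MCT4, an exporter of lactate, overlapped in all comparisons, and Slc2a3, the neuronal glucose transporter GLUT3, was at 0.76 to 1.03 in SVZ Sox2-GFP, 0.71 to 0.86 in hippocampus Sox2-GFP and 0.61 to 0.72 in DCX-DsRed.

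Of the kinases that switch pyruvate dehydrogenase off, Pdk1 was at -2.97, -2.64 and -4.23 in SVZ Sox2-GFP, -2.69, -1.84 and -2.85 in hippocampus Sox2-GFP, and -3.73, -4.57 and -4.33 in DCX-DsRed. Its difference of 1.76 in the hippocampus (SE 0.51, adjusted p = 0.119) rests on the brighter probe, and the other gave -1.07. Pdk2, the most widely expressed kinase, ranged over 2.76 to 3.57 in hippocampus Sox2-GFP and 2.32 to 2.56 in DCX-DsRed, a difference of 0.77 (SE 0.32, adjusted p = 0.273).

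Pdk3 was at -5.03, -2.45 and -4.58 in SVZ Sox2-GFP, -2.33, -2.63 and 0.12 in hippocampus Sox2-GFP, and -2.38, -0.72 and -1.96 in DCX-DsRed. SVZ minus hippocampus was -2.41 (SE 0.93, unadjusted p = 0.0309, adjusted p = 0.408), and -1.57 (SE 1.20) by a second probe. Pdk4, induced by fasting in other tissues, was at -0.41, -3.43 and -4.38 in SVZ Sox2-GFP, -3.05, -3.70 and -3.06 in hippocampus Sox2-GFP, and -2.63, -1.01 and -4.66 in DCX-DsRed, with overlap in all comparisons. The complex's own subunits Pdha1 and Pdhb had hippocampal differences of 1.07 (SE 0.81) and 1.03 (SE 0.59), with no overlap between the groups by the brighter probe. Their second probes gave 0.05 (SE 0.43) and 0.54 (SE 0.62), and by these the groups overlapped.

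In the pentose phosphate pathway, Taldo1, transaldolase of the non-oxidative branch, was the listed gene with the largest negative hippocampal difference. Its levels were -1.22, -0.51 and -0.13 in SVZ Sox2-GFP, -0.34, -1.55 and -3.70 in hippocampus Sox2-GFP, and 0.27, 0.89 and 1.81 in DCX-DsRed. DCX-DsRed arrays lay above all others. The difference was -2.85 (SE 0.82, adjusted p = 0.119 by limma), and replicate C of hippocampus Sox2-GFP was the lowest of its group. Between the regions the difference was 1.25 (SE 0.82, adjusted p = 0.627), with overlap. The fit blocked by slide, where replicate C is the only hippocampus Sox2-GFP array left with weight, gave -5.40 in the hippocampus and 3.44 between the regions.

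Tkt, transketolase, was at 0.87 to 1.57 in SVZ Sox2-GFP, 1.18 to 1.96 in hippocampus Sox2-GFP and 1.83 to 2.50 in DCX-DsRed, and SVZ minus DCX-DsRed was -0.90 (SE 0.37, adjusted p = 0.334). Its other probes gave -2.45 (SE 1.76) and -0.70 (SE 0.42). In the hippocampus the brightest Tkt probe gave -0.39 (SE 0.37), with overlap. The others gave 0.22 (SE 1.76) and -1.43 (SE 0.42) there, the latter without overlap. The oxidative enzymes G6pdx and Pgd, which make NADPH, overlapped in the hippocampus, where their differences were -1.10 (SE 0.66) and 0.11 (SE 0.53). The median of the 4 pathway genes was -0.74 in the hippocampal comparison, by the brightest probes. It was 2.51 for the 5 measured genes of lower glycolysis, which ran from 0.28 to 2.87, and 0.71 for the 9 of upper glycolysis. The wider lists given below did not differ in this way. Their medians were -0.03 for 8 other pentose phosphate genes and -0.36 for 17 other glycolysis genes.

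Among the glycogen genes, Gys1, glycogen synthase, was at -0.21, -1.24 and -1.61 in SVZ Sox2-GFP, 0.27, -0.90 and 0.96 in hippocampus Sox2-GFP, and -0.67, -1.35 and -2.49 in DCX-DsRed. The hippocampal difference was 1.61 (SE 0.66, adjusted p = 0.263 by limma), and SVZ minus hippocampus was -1.13 (SE 0.66, adjusted p = 0.585), with overlap in both. Pygb, brain glycogen phosphorylase, ranged over 1.21 to 1.56 in hippocampus Sox2-GFP and -0.63 to 1.16 in DCX-DsRed, a difference of 1.02 (SE 0.56, adjusted p = 0.413). A second Pygb probe gave 1.93 (SE 0.74). For SVZ minus DCX-DsRed the brighter and the second probe gave 0.85 and 3.61, and between the regions -0.17 and 1.68. Gbe1, the branching enzyme, had a probe well above background on 2 of 9 arrays, both of hippocampus Sox2-GFP, and was not tested.

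Isoenzyme pairs were compared within an array, so that array-wide shifts cancel. The value is the first gene minus the second, in which only the difference between groups has a meaning. Of 6 pairs and 12 tests, none could pass: the exact two-sided permutation test over 3 against 3 arrays cannot go below p = 0.1, and the smallest adjusted p was 0.48. In the hippocampus Ldha minus Ldhb differed by -2.17 (exact p = 0.1), Pdk4 minus Pdk1 by -2.26 (exact p = 0.2) and Slc16a1 minus Slc16a7 by 2.05 (exact p = 0.2). Pfkfb3 minus Pfkfb2 differed by -1.37 (exact p = 0.3). Hk2 minus Hk1 differed by -2.56 (exact p = 0.3), a value with little weight, since Hk2 was well above background on 1 of 3 arrays in each group. Eno1 minus Eno2 differed by -0.24 (exact p = 0.6). All these values take the brightest probe of each gene, and the probes of Pdk1 and of Slc16a1 differed in sign there. With the mean of all probes, Pdk4 minus Pdk1 differed by -0.84, Slc16a1 minus Slc16a7 by 0.92 and Eno1 minus Eno2 by -0.80. By the brightest probes, only Ldha minus Ldhb was without overlap in the hippocampus: -0.17, 1.42 and -1.13 in hippocampus Sox2-GFP and 2.43, 2.44 and 1.75 in DCX-DsRed.

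**Figure D5:**
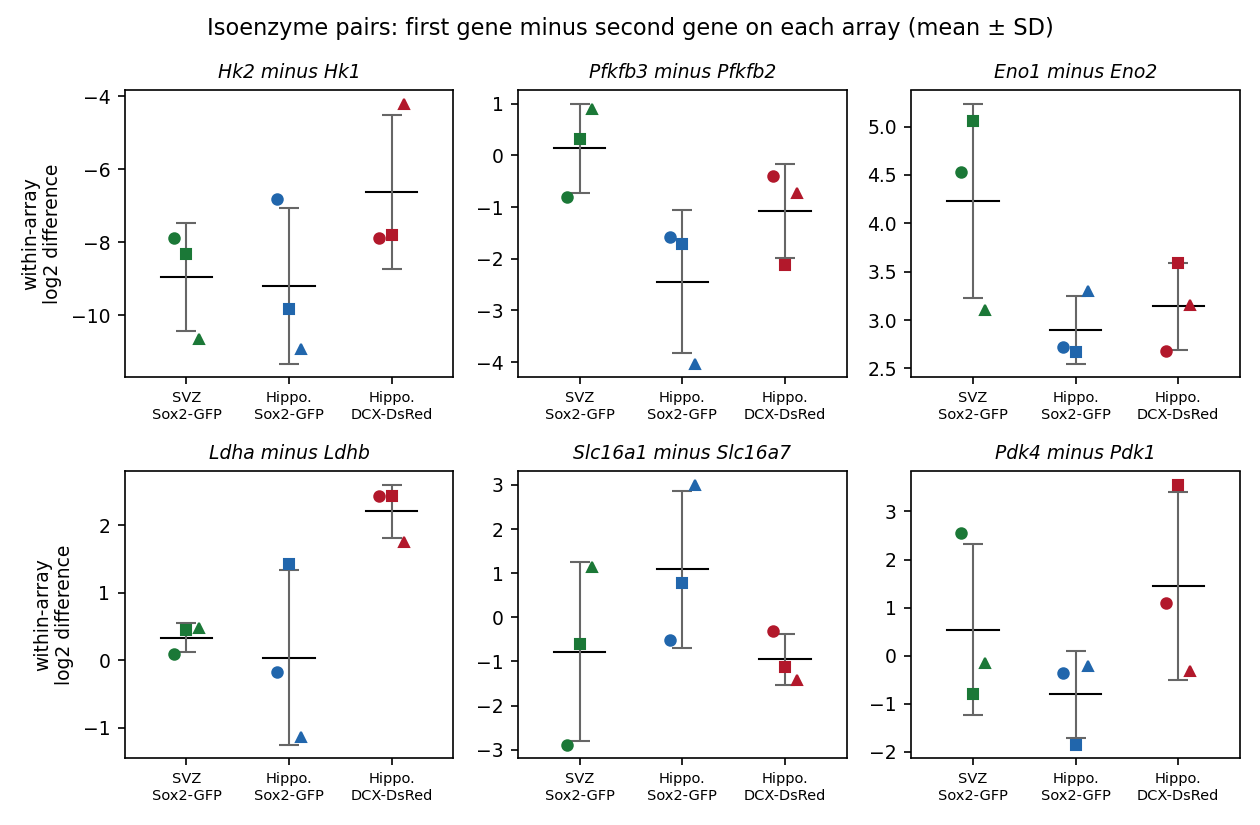
Within-array log2 difference of 6 isoenzyme pairs on each array (symbols, replicates A, B and C), with the group mean and SD. Ldha minus Ldhb is highest on the DCX-DsRed arrays, and Pfkfb3 minus Pfkfb2 is higher on the SVZ than on the hippocampus Sox2-GFP arrays.

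Between the regions, Pfkfb3 minus Pfkfb2 differed by 2.58 (exact p = 0.1): its values were -0.80, 0.32 and 0.90 in SVZ Sox2-GFP and -1.57, -1.72 and -4.03 in hippocampus Sox2-GFP. By the brightest probes this was the largest difference among the 6 pairs in that comparison. With the mean of all probes of a gene it was 1.14, and Eno1 minus Eno2 was larger, at 2.74.

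Other genes of the same pathways were looked at as lists. Their calls stand beside 3.19% of all genes in the hippocampal comparison, 0.402% between the regions and 1.52% for SVZ Sox2-GFP minus DCX-DsRed. Their hippocampal medians stand beside -0.08 over all genes. Of 14 other lactate and sugar transport genes, 3 passed limma's test in the hippocampal comparison, all higher in Sox2-GFP. They were Bsg (basigin, the chaperone of MCT1 and MCT4) by 3.07 (SE 0.56, adjusted p = 0.0286), Emb (embigin, a related chaperone of lactate transporters) by 3.58 (SE 0.72, adjusted p = 0.0385) and Slc2a12 (a glucose transporter) by 7.56 (SE 1.42, adjusted p = 0.0309). Slc2a12 was well above background on 1 of the 3 DCX-DsRed arrays, so the low end is poorly measured. Bsg levels were 3.12, 2.68 and 3.75 in SVZ Sox2-GFP, 4.92, 4.24 and 5.99 in hippocampus Sox2-GFP, and 1.77, 1.42 and 2.76 in DCX-DsRed. The list's median difference was 0.44, and the calls held in 16 of 21 alternatives for Bsg, 10 of 21 for Emb and 14 of 20 for Slc2a12.

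Of 22 other genes of glycogen and gluconeogenesis, only Pygm, muscle glycogen phosphorylase, passed. It was higher in hippocampus Sox2-GFP by 4.86 (SE 0.87, adjusted p = 0.0270) and in SVZ Sox2-GFP by 5.17 (SE 0.87, adjusted p = 0.0341), each against DCX-DsRed. Its levels were 1.44, 1.87 and 1.91 in SVZ Sox2-GFP, 1.20, 0.42 and 2.68 in hippocampus Sox2-GFP, and -1.55, -3.85 and -4.89 in DCX-DsRed. The calls held in 15 of 21 and 14 of 21 alternatives.

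Of 19 measured hypoxia regulators and response genes, Ndrg1 passed, with a difference of -5.11 (SE 0.74, adjusted p = 0.0122) in the hippocampus and -4.47 (SE 0.74, adjusted p = 0.0318) for SVZ minus DCX-DsRed. It was at -1.08, -2.44 and -0.13 in SVZ Sox2-GFP, -0.83, -1.48 and -3.26 in hippocampus Sox2-GFP, and 3.09, 3.19 and 3.48 in DCX-DsRed. Ndrg1 is known as a gene of myelinating glia as well as of the hypoxia response. The myelinating oligodendrocyte markers were also highest on the 3 DCX-DsRed arrays. Within SVZ Sox2-GFP their sum was highest on replicate B, where Ndrg1 was lowest. Within hippocampus Sox2-GFP the sum and Ndrg1 were both lowest on replicate C. The part of these markers' cells in the result was not tested. The calls held in 20 of 21 and 14 of 21 alternatives. The list's median was -0.15, beside -0.08 over all genes.

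Of 20 tricarboxylic acid cycle genes, Idh2, mitochondrial isocitrate dehydrogenase, passed as higher in hippocampus Sox2-GFP, by 2.27 (SE 0.44, adjusted p = 0.0336), and 9 of the 20 did not overlap between the groups, all higher, beside 11.5% of all genes. The call of Idh2 held in 13 of 21 alternatives, and the list's median difference was 0.88. None of the 17 other glycolysis genes, 11 measured other pyruvate entry genes or 8 other pentose phosphate genes passed, and their medians were -0.36, 0.69 and -0.03. In the comparison of regions no gene of these 7 lists passed.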

How the data were processed

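Messenger RNA of sorted cells was hybridised to 9 Agilent arrays, labelled with Cy3. Per the file headers, Agilent Feature Extraction 9.5.1.1 made the deposited intensity values, with background subtracted and no normalization between arrays. The other deposited columns used, per the file headers, were the mean spot intensity, the local background intensity and flags for outlier spots and spots well above background. The submitters' processing notes name limma without a version. The build of the probe coordinates is not given in the sources used here.

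Control spots and outlier spots were left out, which dropped 464 of 41174 probes. The processed signal was taken to log2 and each array's 75th percentile subtracted. Gene names came from an intact file, since 47 symbols were altered in that of DCX-DsRed replicate A, and 22612 probes were renamed by accession through RefSeq. Probes were kept if 3 or more of the 9 arrays measured them well above background, and the brightest stood for its gene. All 9 arrays entered 1 fit (limma 3.58.1, lmFit and eBayes, R 4.3.3, with 6 residual degrees of freedom) after a test on simulated data, with Benjamini-Hochberg adjustment over 24897 genes and a threshold of 0.05. Isoenzyme pairs were tested by exact permutation over 12 tests instead of the 14 planned, since Pfkm could not be measured. The precision is limited by the 3 arrays per group.

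All listed genes are named. Values on every array were to be printed for genes that passed in a comparison, for the smallest p of each other role, and for the pair with the largest unequal change, and those of other genes were added after their values were seen. Of the other pathway lists, at most 3 called genes are named. The genes and lists were chosen with earlier results of these data known. Alternatives were normexp, quantile and median scaling, other filters, the mean of all probes, slide as a block, only the 6 arrays compared, trended variance, array weights, a replicate block and leaving out each array.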

Additional observations from a re-analysis of the deposited data

How the results depend on the processing

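Eno1 and Pfkl kept the sign of their hippocampal difference in every alternative run, and no called value of a listed gene changed sign. Of the listed genes, 2 passed in the hippocampal comparison as reported, against 4 with normexp, 0 with the median of each array, 5 with slide as a fixed block, 1 with only the 6 arrays, 4 with trended and robust variance and 14 with array weights. All genes passing were 793 as reported and, in that order, 1118, 806, 2032, 574, 956 and 5509. The fixed slide block gives hippocampus Sox2-GFP A and B no weight, so its calls in the comparisons with that group rest on replicate C alone and support nothing. The median of the listed genes, 0.64 as reported, was 0.362 with the mean of all probes, 1.06 with slide as a fixed block and 1.20 within slide 3. Leaving out 1 array gave 248 to 783 genes, 0 to 3 listed genes and a median of 0.383 to 0.832. For SVZ minus hippocampus Sox2-GFP, 100 genes passed as reported, 162 with normexp, 54 with probes well above background on all arrays, 173 with the mean of all probes, 2151 with slide as a fixed block, 8 with only the 6 arrays and 349 with array weights. With slide as a fixed block 64.3% of these were higher, against 11.0% as reported (36.6% against 55.1% in the hippocampal comparison), all-gene medians were -0.18 in the hippocampal comparison and 0.25 between the regions, and 2 listed genes passed between the regions, Pfkfb3 and Taldo1. The median of the listed genes was then -0.968, and -0.794 within slide 3, and 3 listed genes had groups without overlap under the median of each array (16.6% of all genes), against 5 as reported (16.9%). Leaving out 1 array gave 35 to 102 genes and 5 to 12 listed genes without overlap. The 12 came without hippocampus Sox2-GFP B (26.2% of all genes), and 8, 9 and 11 came without SVZ Sox2-GFP A, B and C (29.1%, 27.4% and 27.9%). For SVZ minus DCX-DsRed, 379 genes passed as reported, 795 with slide as a fixed block, 837 with slide as a random block and 1253 with array weights. Of the listed genes, 1 passed with normexp (550 genes in all), with either slide block and with trended and robust variance (462 genes), and 5 with array weights. The median was 0.343 within slide 1, and leaving out 1 array gave 49 genes (without DCX-DsRed A) to 852 (without hippocampus Sox2-GFP C) and 0 to 1 listed genes. Same-letter arrays deviated together with correlations of -0.044 to 0.115. The highest was between SVZ Sox2-GFP A and DCX-DsRed A, which also shared slide 1. With 3 arrays per group these values cannot settle whether the letters mark a pairing. With a replicate block, 485, 13 and 186 genes passed in the 3 comparisons, and 1 listed gene in the hippocampal comparison, where Pfkl missed the threshold (adjusted p = 0.0607). The causes of these changes were not tested, and 3 arrays a group with an amplified 1000-cell input limit what can be called.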
